A study of Rattus norvegicus with 4 samples.

Results

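The genes described here are the autophagy machinery and its cargo receptors, a list of 40 rat genes that build the autophagosome or load it. A gene was included when an array probe's accession matched its RefSeq symbol, which held for 37 of the 40 among 16579 measured genes; Pik3r4, Atg2b and Atg4b matched no probe used here. RNA came from 4 biological replicates, called cultures here, of NR8383 cells, a rat alveolar macrophage line that grows as a mix of adherent and floating cells and is labelled as after 20 passages. Each was exposed for 4 h to the COOH-functionalized carbon nanotubes NRCWE042 at 6.8 cm2 of nanotube surface per cm2 of culture. Every array used here carries exposed cells, and unexposed cultures were not analysed here, so no value below is an effect of the nanotubes. The values show which autophagy genes the exposed macrophages expressed and how far their levels differed between the arrays of the 4 cultures. Because each array holds the RNA of a whole flask, more cells expressing a gene and more RNA per cell cannot be told apart.

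Autophagy wraps cytoplasm, damaged organelles or engulfed particles in a double membrane that fuses with the lysosome. The ULK1 kinase complex starts the process, the class III phosphatidylinositol 3-kinase complex marks the membrane, ATG2 and ATG9 supply lipid, and a pair of ubiquitin-like conjugation systems attach the ATG8 proteins (LC3 and GABARAP) to it. Receptors such as p62 bridge ubiquitinated cargo to ATG8 proteins. In macrophages part of this machinery also coats phagosomes that hold ingested particles. Much of its control acts on the proteins, by phosphorylation and lipidation, which an mRNA array does not measure.

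The 4 arrays came from 1 slide and 1 scan. Taken over all sample spots, the 75th percentile of the processed signal was 734 and 757 on replicates 1 and 2. It was 595 on replicate 3 and 307 on replicate 4. Levels and sums below use the percentile over probes instead, with the spots of a probe averaged first, which is lower. The share of probes well above background fell from 38.8% on replicate 1 to 31.1% on replicate 4. A patch of 2462 spots near the centre of replicate 3 was low relative to the other arrays, and 856 of the same spots were also low on replicate 4. Of the macrophage markers, 7 of 9 measured were well above background on all 4 arrays, including Cd68, Csf1r, Spi1 and Lyz2, while Marco and Adgre1 were not on any. Of 21 measured markers of epithelium, fibroblasts, T cells, B cells, neutrophils and endothelium, 2 were: Cd4, which rat macrophages also express, and Cdh5. The summed signal of the macrophage list was 1122 to 1285 times the array's 75th percentile over probes. That of each other list was 0.0415 to 3.30 times. The lists differ in size, and most of the macrophage sum came from Lyz2, so the sums do not describe each gene of a list.

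Most of the autophagy machinery was expressed. On all 4 arrays, 29 of 37 measured members (78.4%) were well above background, beside 44.4% of all measured genes (7363 of 16579). A gene counted as detected when at least 1 of its probes carried the scanner software's well-above-background mark on every array. Every ATG8 gene was detected (5 of 5), as were 7 of 8 receptor and receptor kinase genes, 4 of 5 measured genes of the lipid kinase complex, 4 of 5 of membrane supply, 4 of 6 conjugation genes, 2 of 3 measured ATG4 proteases and 3 of 5 genes of the initiation complex. Of the remaining 8 members, Rb1cc1, Atg5 and Atg4a were detected on 3 arrays, Atg12 and Tbk1 on 2, Atg13 on 1, and Uvrag and Wipi1 on none. A probe below background does not show that a transcript was absent. Replicate 4, the dimmest array, decided 3 of these: without it, Rb1cc1, Atg5 and Atg4a counted as detected and the share was 86.5%, beside 47.7% of all genes.

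**Figure D1:**
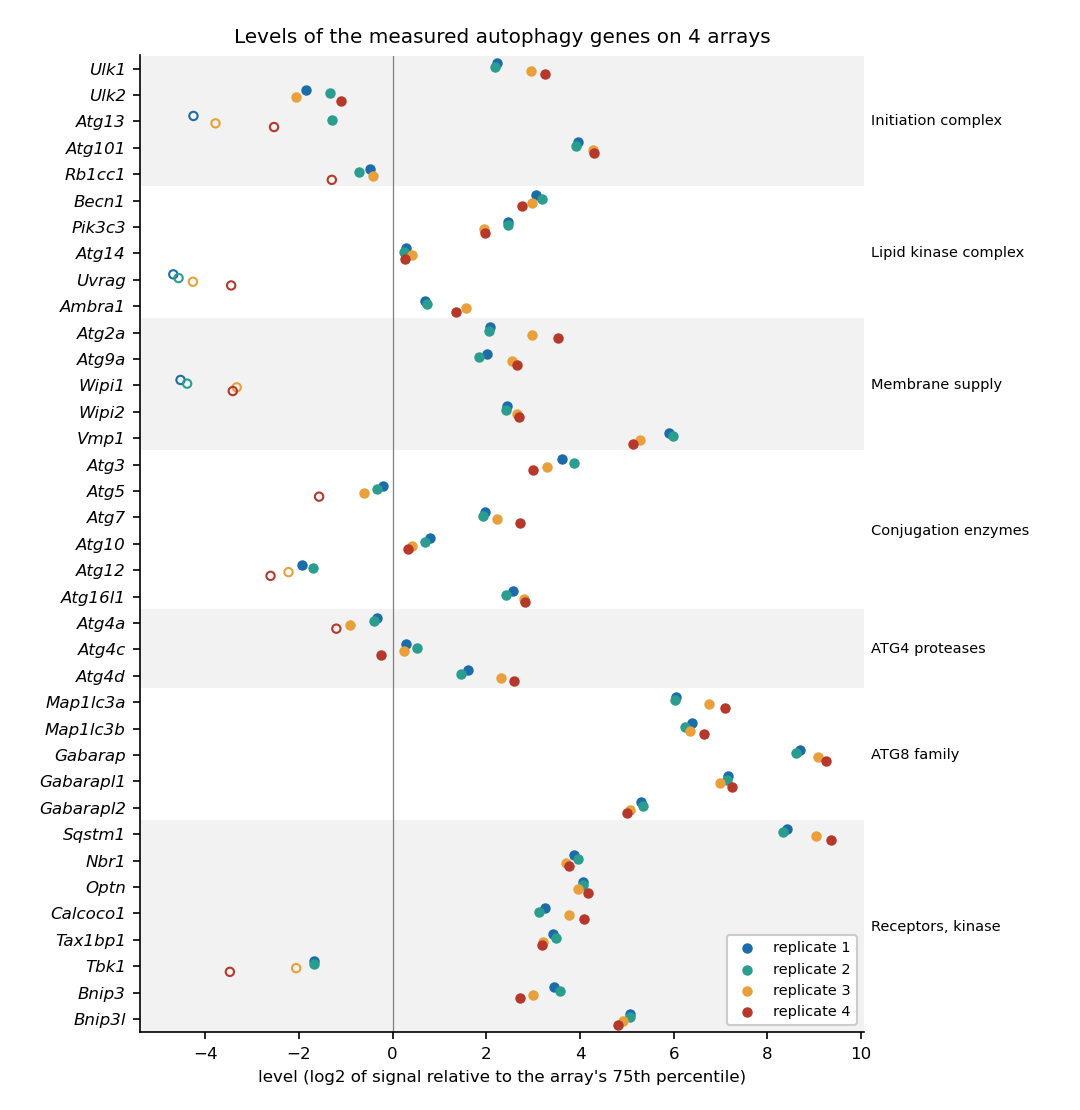
Level of each of the 37 measured autophagy genes on the 4 arrays (horizontal axis, log2 of the signal over the 75th percentile of that array), grouped by role, 1 colour per exposed culture; filled circles are probes well above background, open circles are not. Open circles belong to 8 genes; among genes with filled circles only, those of Ulk1, Atg2a, Atg4d, Map1lc3a and Sqstm1 spread over more than 1 log2 unit.

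Levels are given as log2 of the processed signal over the same array's 75th percentile. That percentile is taken over probes, so that 0 is the brightness of a probe at it. On replicate 1, for example, the Ulk1 signal of 598 gives a level of 2.23. Probes differ in affinity, and levels of different genes are therefore not ordered. The median SD over the 4 arrays was 0.31 log2 units in the 29 detected members, beside 0.25 in all detected genes. An SD above 0.5 was found in 4 members (13.8%), beside 11.6% of all detected genes. These shares lie close together. The 4 members were Atg2a (SD 0.72, higher than 98.2% of detected genes), Atg4d (0.54), Map1lc3a (0.53) and Ulk1 (0.53). On this scale the smallest SDs were those of Atg14 (0.08), Optn (0.09), Gabarapl1 (0.10) and Nbr1 (0.11), each on its brightest probe; the other 2 Optn probes both had an SD of 0.25. Without replicate 4 the median SD was 0.20, both in the members and in all detected genes. Of the 32 members then detected, 1 had an SD above 0.5, beside 5.57% of all detected genes.

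These spreads, and every statement that a gene was higher or lower on an array, hold relative to the array's 75th percentile. Scaled on the spike-in controls instead, the median detected gene itself lay 0.75 below its mean on replicate 4 and 0.51 above it on replicate 2. On that scale Ulk1, Map1lc3a and Sqstm1 deviated by -0.25, -0.24 and -0.28 on replicate 4, where relative to the percentile they were highest, and the SD of Atg2a was 0.10. On their brightest probes Vmp1 and Bnip3 were lowest on replicate 4 on both scales, with deviations of -1.28 and -1.31 on the spike-in scale. Normexp background correction moved 26 of the 37 SDs in either direction. It gave smaller ones for Ulk1 (0.30) and Atg4d (0.14), and larger ones for Vmp1 (0.74), Becn1 (0.44), Tax1bp1 (0.43), Nbr1 (0.29), Gabarapl1 (0.28) and Optn (0.19), beside a median of 0.23 in all detected genes.

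**Figure D2:**
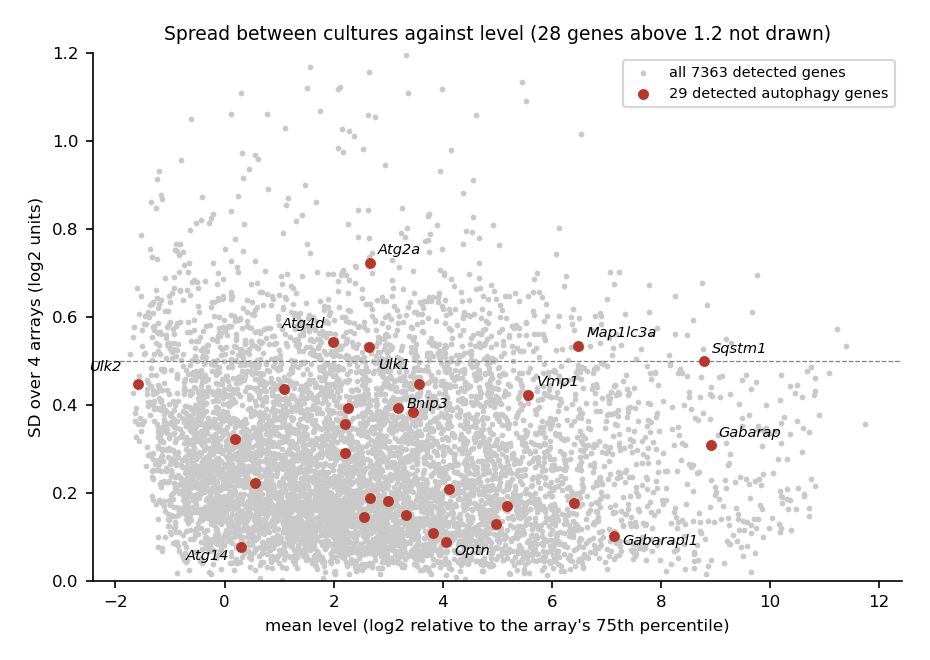
SD over the 4 arrays (vertical axis, log2 units) against mean level (horizontal axis, log2 of signal over the 75th percentile) for all 7363 detected genes in grey and the 29 detected autophagy genes in red; the dashed line marks an SD of 0.5. Of the red points, 4 lie above the line, and Atg2a is the topmost at 0.72.

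In the initiation complex, Ulk1, the kinase that receives mTORC1 and AMPK signals, had a level of 2.23, 2.19, 2.95 and 3.25 on replicates 1 to 4, a mean of 2.66 ± 0.53 (SD, n = 4 arrays here and below). Replicates 1 and 2 were nearly equal, replicate 4 was highest, and the whole range came to 2.09-fold. Ulk2, its paralogue, was close to the detection limit, with levels of -1.85, -1.33, -2.07 and -1.11, and a second Ulk2 probe was below background on every array. Atg101, which stabilizes ATG13, stood at 3.95, 3.91, 4.27 and 4.30, a range of 1.32-fold. Rb1cc1, which encodes the scaffold FIP200, read -0.47, -0.71, -0.42 and -1.30 and was below background on replicate 4. For Atg13, the adaptor of the complex, the only probe lies in the low-signal patch. It read -4.25, -1.31, -3.78 and -2.53 and was above background on replicate 2 alone.

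In the lipid kinase complex, Becn1, the scaffold subunit Beclin 1, averaged 3.00 ± 0.18, and the catalytic subunit gene Pik3c3 (VPS34) read 2.46, 2.47, 1.94 and 1.98, with replicates 3 and 4 the lower ones. Atg14, the subunit that directs the complex to autophagosome formation, read 0.28, 0.23, 0.41 and 0.26. Uvrag, which takes the place of ATG14 in the endosomal form of the complex, was below background on every array. Ambra1, a scaffold that links Beclin 1 to ubiquitin ligases, had levels of 0.70, 0.73, 1.56 and 1.35. Its levels on replicates 3 and 4 were the higher ones, opposite to Pik3c3.

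Genes of membrane supply went in opposite directions as well. Atg2a, the lipid transfer protein at the contact with the endoplasmic reticulum, read 2.09, 2.06, 2.98 and 3.54, a range of 2.79-fold. Atg9a, a lipid scramblase on donor vesicles, read 2.02, 1.85, 2.55 and 2.66. Vmp1, a scramblase of the endoplasmic reticulum that releases the growing membrane, read 5.89, 5.98, 5.28 and 5.14 on its brightest probe. Thus Atg2a and Atg9a were higher on replicates 3 and 4 than on the others, and the brightest Vmp1 probe was lower there. Wipi2, the phosphoinositide reader that recruits the ATG16L1 complex, averaged 2.55 ± 0.15, and its relative Wipi1 was not detected on any array.

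Among conjugation enzymes, the E1-like enzyme gene Atg7 averaged 2.21 ± 0.36 and was highest on replicate 4 (2.71). Atg3, the E2 enzyme for ATG8 proteins, read 3.62, 3.88, 3.30 and 3.00 and was lowest on that array. Atg10, the E2 enzyme for ATG12, averaged 0.56 ± 0.22, and Atg16l1, which places the conjugate on the membrane, 2.66 ± 0.19. The conjugate partners themselves were near the limit: Atg5 read -0.21, -0.33, -0.61 and -1.57 and fell below background on replicate 4, while Atg12 (-1.93, -1.70, -2.22 and -2.61) was above it on replicates 1 and 2 only. Of the ATG4 proteases, which trim and recycle ATG8 proteins, Atg4d read 1.61, 1.46, 2.32 and 2.58 and was highest on replicate 4. Atg4c read 0.28, 0.52, 0.25 and -0.25 and was lowest there, and Atg4a (-0.34, -0.39, -0.91 and -1.20) was below background on that array.

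All ATG8 genes were well above background on every array. Map1lc3a read 6.05, 6.02, 6.76 and 7.10, a range of 2.10-fold, with replicates 1 and 2 nearly equal and replicate 4 highest. Gabarap read 8.69, 8.61, 9.08 and 9.26, in the same order of arrays. Gabarapl2 ran the other way, with 5.29, 5.35, 5.06 and 5.01. Gabarapl1 stayed within 1.18-fold, at 7.16, 7.15, 6.99 and 7.24. Map1lc3b, which encodes LC3B, the usual marker protein of autophagosomes, read 6.39, 6.24, 6.35 and 6.65 on its brightest probe. Its other probes did not share this order of arrays, as described further on.

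Of the receptors, Sqstm1, which encodes p62 and is also an NRF2 target, had a level of 8.41, 8.33, 9.05 and 9.36 on its brightest probe, or 8.79 ± 0.50, a range of 2.04-fold. Its SD was 0.32 with the mean over probes, 0.31 under normexp and 0.19 with spike-in scaling. Calcoco1, a receptor for endoplasmic reticulum and Golgi, followed the same order at 3.25, 3.13, 3.77 and 4.08. The ubiquitin-binding receptor genes Nbr1 (3.86, 3.95, 3.71 and 3.77), Optn (4.06, 4.07, 3.95 and 4.16) and Tax1bp1 (3.43, 3.49, 3.22 and 3.20) had ranges of 1.19-, 1.16- and 1.23-fold. Bnip3, a hypoxia-inducible receptor on mitochondria, read 3.44, 3.56, 2.99 and 2.72 and was lowest on replicate 4. Its relative Bnip3l (NIX) read 5.08, 5.07, 4.92 and 4.81, in nearly the same order within a narrower range. Tbk1, the kinase that phosphorylates OPTN and p62, was above background on replicates 1 and 2 (-1.69 and -1.68) and below it on replicate 3 (-2.06) and replicate 4 (-3.48).

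**Figure D3:**
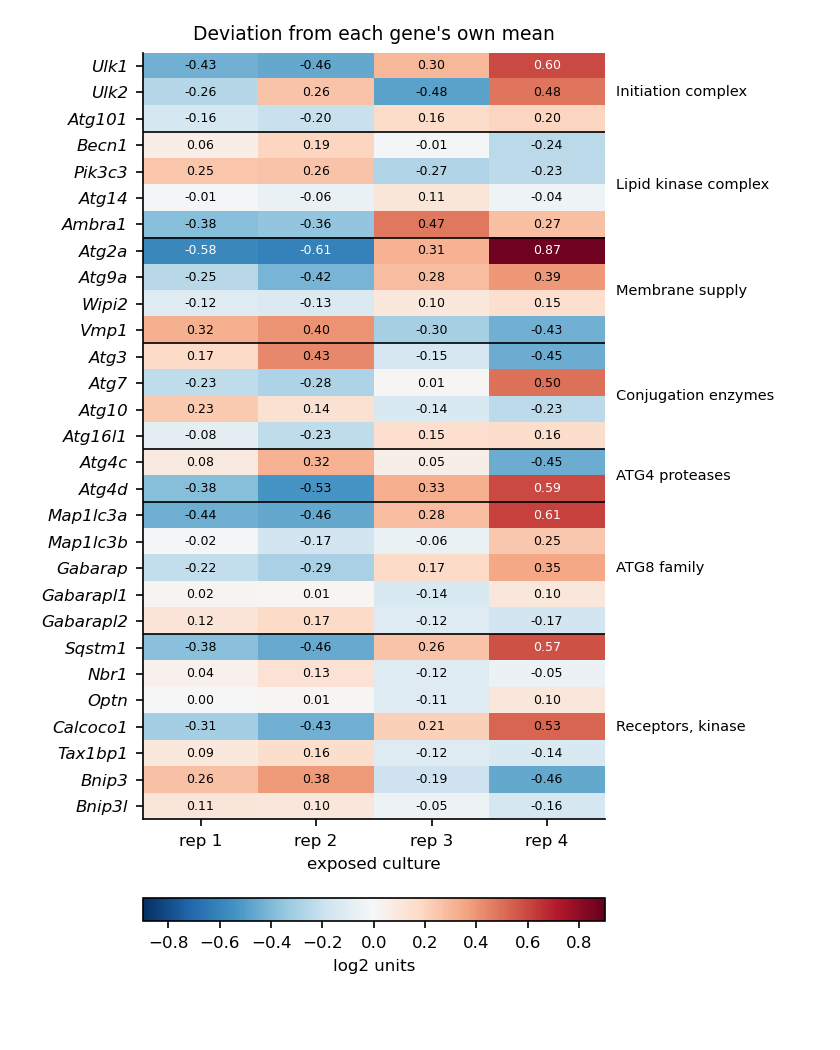
Deviation of each of the 29 detected autophagy genes from its own mean over the 4 exposed cultures (log2 units; red above, blue below), in rows by role. Atg2a lies 0.87 above its mean on replicate 4 and Bnip3 0.46 below its own.

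Across roles, members formed no single direction. Above their own mean lay 13, 14, 15 and 17 of the 29 detected members on replicates 1 to 4, beside 38.7%, 41.9%, 61.9% and 59.6% of all detected genes. The highest of the 4 levels was on replicate 4 in 16 members (46.4% of all detected genes) and on replicate 2 in 9 (26.4%), while replicates 1 and 3 held it in 2 each (10.6% and 16.5%). The lowest was on replicate 2 in 14 members (35.2%), on replicate 4 in 9 (29.6%), on replicate 3 in 5 (13.1%) and on replicate 1 in 1 (22.0%). The median deviation of the members was -0.02, -0.06, 0.01 and 0.15 log2 units on replicates 1 to 4, beside -0.07, -0.07, 0.06 and 0.10 in all detected genes. The value on replicate 4 became -0.18 under normexp background correction, beside -0.13 in all detected genes.

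Set against the median gene of each array, 12 members (41.4%) lay under it on replicates 1 and 2 but over it on the other arrays, beside 35.1% of all detected genes. The reverse held for 11 members (37.9%), beside 34.2%. Both patterns were thus common among all genes on these arrays, and whether members differ from them was not tested. For some members the side on each array was the same under every alternative tried that could change it. Spike-in scaling and the percentile over detected probes could not, because each shifts all genes of an array alike. Members so kept under the median gene on replicates 1 and 2 were the 8 genes Ambra1, Atg2a, Atg4d, Atg9a, Calcoco1, Map1lc3a, Sqstm1 and Ulk1 (27.6%, beside 19.0% of all detected genes). Those with the opposite sides were the 7 genes Atg3, Bnip3, Bnip3l, Nbr1, Pik3c3, Tax1bp1 and Vmp1 (24.1%, beside 17.5%). Probes other than the brightest were not tried singly, and in Vmp1 and Nbr1 the probes took opposite sides of their means on replicate 4. The overall signal of the arrays moved alongside the patterns, being lowest on replicate 4. So did the macrophage transcription factor gene Spi1 (3.37, 3.27, 3.94 and 4.36), but the macrophage markers as a list did not. Of the 7 detected markers, 3 were highest on replicate 4 and 4 were lowest there. The part of the signal and of these genes in the patterns was not tested.

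Several probes were available for 13 members, and in 9 of them at least 2 probes were well above background on all arrays. In Atg9a, Bnip3, Gabarapl2, Calcoco1 and Sqstm1 the probes lay on the same side of their own means on replicate 4. The size still differed: the 3 Sqstm1 probes lay 0.57, 0.31 and 0.17 log2 units above their means there, and their SDs ran from 0.14 to 0.50. In Vmp1, Map1lc3b, Optn and Nbr1 the probes took opposite sides on replicate 4. The 3 Vmp1 probes deviated by -0.43, -0.79 and 0.10 on that array. Of the 4 Map1lc3b probes, 2 lay above (0.25 and 0.17) and 2 below (-0.16 and -0.28). In Optn the brightest probe lay 0.10 above its mean while the other 2 each lay at -0.27. For these 4 genes the order of the cultures thus depends on the probe, and the sequences of the probes are not in the files used here.

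**Figure D4:**
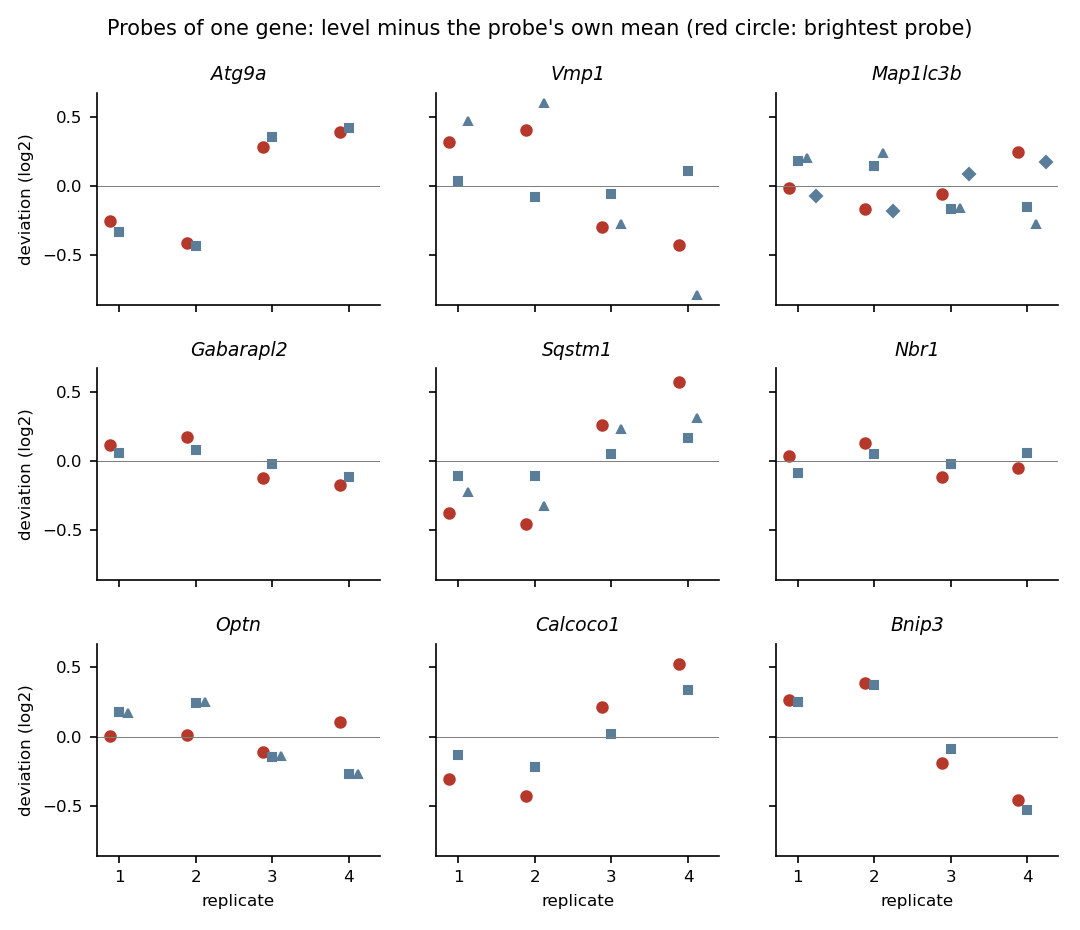
Level minus the probe's own mean (vertical axis, log2 units) on the 4 exposed cultures (horizontal axis) for the 9 autophagy genes with at least 2 detected probes, 1 symbol per probe and the brightest probe as a red circle. Symbols keep together in Atg9a and Bnip3 and part on replicate 4 in Vmp1, Map1lc3b and Optn.

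Probes printed 10 times on each array show how far spots of 1 probe differed within an array. Their mean levels ran from 3.18 (Bnip3) to 7.13 (Gabarapl1). Members near background had no such probe, so their spot spread is not shown. The Gabarapl1 probe had spot SDs of 0.03 to 0.11 log2 units within an array, that of Bnip3 0.04 to 0.10, and that of Map1lc3b 0.08 to 0.11. For Vmp1 the spot SD was 0.10 to 0.12 on replicates 1, 2 and 4 and 0.27 on replicate 3, where 1 of its spots lies in the low-signal patch; without that spot it was 0.19. The Bnip3 spots of replicate 4 (2.54 to 2.92) did not overlap those of replicate 1 (3.39 to 3.50) or replicate 2 (3.50 to 3.61). Vmp1 spots of replicate 4 (4.99 to 5.30) likewise lay below all those of replicate 1 (5.65 to 6.03). On replicate 3 the spots of both probes overlapped those of replicate 4: Bnip3 spots there lay between 2.92 and 3.11, with 2.92 also the highest on replicate 4, and Vmp1 spots between 4.72 and 5.67. Gabarapl1 spots of replicate 1 (7.08 to 7.26) and replicate 4 (7.19 to 7.27) overlapped. Spots of 1 array share 1 culture, RNA and labelling, whose contributions cannot be told apart.

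**Figure D5:**
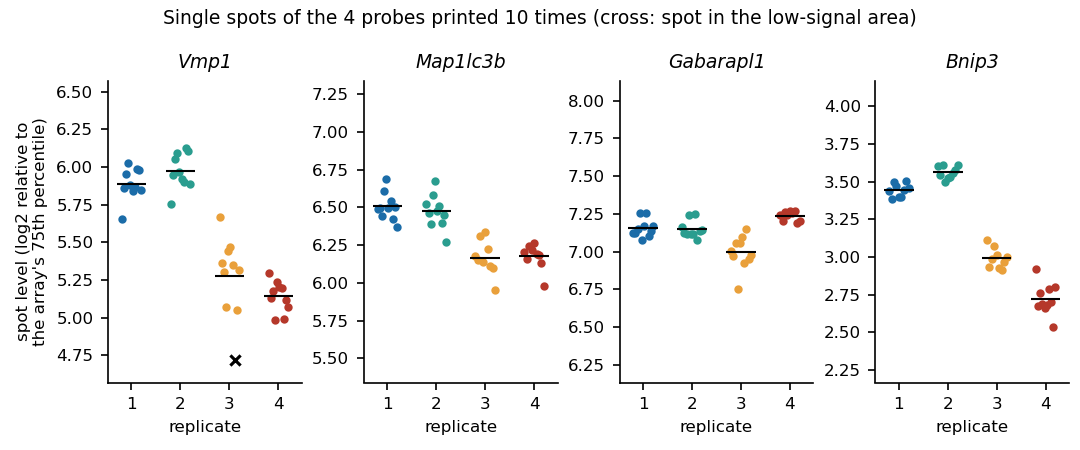
Levels of single spots (vertical axis, log2 of signal over the 75th percentile) of the 4 autophagy probes printed 10 times, by exposed culture (horizontal axis); horizontal lines are means, the cross is a spot in the low-signal patch, and each panel spans 2 log2 units. Bnip3 spots of replicate 4 lie between 2.54 and 2.92, below all those of replicates 1 and 2.

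Genes that control autophagy or complete it were detected in 75 of 89 cases (84.3%), beside 44.4% of all measured genes. In a list of mTORC1, AMPK and nutrient sensing genes 23 of 27 measured were detected, in transcription factors of autophagy and lysosome genes 10 of 13, in autophagosome tethering and fusion 13 of 14, in other core machinery 15 of 17 and in other selective autophagy genes 14 of 18. Tsc2, which restrains mTORC1, had levels of 3.13, 3.10, 4.18 and 4.68. Mtor itself was detected on 3 arrays. Tfeb, the main activator of lysosome and autophagy genes, read 1.36, 0.94, 1.91 and 2.16, and its relative Tfe3 read 4.27, 4.30, 4.96 and 5.18, both highest on replicate 4. Nfe2l2, which encodes NRF2, averaged 4.62 ± 0.09 and the stress factor gene Atf4 at 7.99 ± 0.05. Tecpr1, a tether of autophagosome and lysosome, read 3.70, 3.71, 4.45 and 4.77, while the fusion SNARE gene Stx17 was detected on 3 arrays. Lgals8, which encodes the sensor galectin-8 of broken vesicles, read 2.57, 2.66, 2.09 and 1.68. The other wide SDs in these lists included Rraga (0.57), Lamtor3 (0.57) and Rab7a (0.51); the probes of Lamtor3 and Rab7a lie in the low-signal patch.

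Promoters were read because TFEB and TFE3 bind the E-box core CACGTG within longer lysosomal elements, and NRF2 binds antioxidant response elements with the core TGACNNNGC. RefSeq promoters (GRCr8, 250 bases before to 50 after the annotated start) were found for 35 of the 40 genes, and both strands were searched. The E-box core occurred in 5 member genes (14.3%), beside 7.08% of all genes with a promoter, and the full CLEAR palindrome in 0 of 35, beside 0.280%. The 30-base windows that hold the E-box cores are shown because these are the members with the letters TFEB is known to read; capitals mark the core.
Atg3, at -39 from the start, chr11:69159302-69159331, minus strand: gcctacttctgtCACGTGtcccgggagatt
Atg3, at -16, chr11:69159279-69159308, minus strand: ggagattcgagtCACGTGaggcctaggagg
Bnip3, at -99, chr1:203155044-203155073, minus strand: gcgcacgcgccgCACGTGccacacgcgccc
Tbk1, at -55, chr7:58996395-58996424, minus strand: cccgccgtcggtCACGTGcttcgtggcccg
Atg5, at -19, chr20:49380804-49380833, plus strand: cggggcgctggcCACGTGggcgggtgacgt
Atg14, at 7, chr15:23306792-23306821, minus strand: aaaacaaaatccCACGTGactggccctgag

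Of these 5 genes, Atg3 and Bnip3 were lowest on replicate 4, Atg14 read between 0.23 and 0.41, Tbk1 was below background on replicates 3 and 4, and Atg5 was below it on replicate 4.

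The antioxidant response core occurred in 7 member genes (20.0%), beside 13.1% of all genes with a promoter: Atg10, Atg4b, Atg4d, Gabarap, Map1lc3b, Ulk2 and Vmp1. Windows of 4 detected members are shown, with the core in capitals, as examples of either strand; in Gabarap and Vmp1 it is read on the opposite strand.
Map1lc3b, at -8, chr19:66574575-66574607, plus strand: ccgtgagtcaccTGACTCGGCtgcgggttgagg
Atg4d, at -18, chr8:28083906-28083938, plus strand: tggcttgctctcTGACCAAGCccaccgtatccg
Gabarap, at -179, chr10:55213274-55213306, plus strand: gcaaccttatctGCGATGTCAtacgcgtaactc
Vmp1, at -170, chr10:72002469-72002501, minus strand: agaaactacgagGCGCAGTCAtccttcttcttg

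On the brightest probes their levels did not move together: Atg4d and Gabarap were highest on replicate 4 and Vmp1 was lowest there. In Vmp1 and Map1lc3b the order of arrays depended on the probe. A match of letters is a description of the sequence, and binding was not measured.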

How the data were processed

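Cy3-labelled cRNA from 4 exposed cultures was read on 1-colour arrays, 1 per culture. The deposited intensities, per the file headers, are linear spot signals background-corrected within each array and not normalized between arrays; Agilent Feature Extraction 11.0.1.1 made them, per the submitters' processing notes; the array design names an older genome build, and no probe coordinates are given. From the processed signal, spots marked as non-uniform or population outliers were left out, log2 was taken, spots of a probe were averaged and the array's 75th percentile was subtracted. Of 45598 sample probes, 21109 were named through their accession in RefSeq (GRCr8). A gene took its brightest probe. The low-signal patch was found as connected spots (at least 200) whose local median deviated by more than 0.5 log2 units below the other arrays. With 1 group, nothing was tested, and the number of arrays limits the precision. All SDs measure the spread between arrays of cultures that the labels call biological replicates. With 1 array per culture, differences of culture, RNA, labelling and array cannot be told apart. The members and lists were chosen with earlier results of these data known. All 40 members were named, with values on every array for the initiation, ATG8 and receptor genes, those with an SD above 0.4 and those detected on 1 to 3 arrays. Of the other lists, genes with the widest SD and genes not detected were named, up to 4 per list; Nfe2l2, Atf4 and Spi1 were added after their values were seen. Alternatives were normexp (offset 50, on the raw spot median), quantile and spike-in scaling, the percentile over detected probes, the mean over probes, other detection rules, outlier spots kept, the low-signal patch left out (on replicate 4 too, chosen after seeing the data), and each replicate left out. The tools were Python 3.11.15, numpy 2.4.6, pandas 2.3.3, scipy 1.17.1 and limma 3.58.1 under R 4.3.3; computations were tested on simulated data. Some genes of the other lists are not reported here.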

Additional observations from a re-analysis of the deposited data

Results flagged for a closer look

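A second probe of Atg10 was far higher on replicate 4 than on the other arrays, at -2.36 against -4.53, -4.41 and -4.35 on replicates 1 to 3. The gap to the nearest array made up 0.914 of its whole range. None of the 4 arrays marked this probe as well above background, and the brighter probe of Atg10 was lowest on replicate 4 (0.33). Uvrag, detected on no array, also read highest on replicate 4, at -3.45 against -4.68, -4.57 and -4.26 on replicates 1 to 3. Wipi1, likewise undetected, read -4.53, -4.39, -3.33 and -3.41. How much of the Atg10 gap reflects such levels below background was not tested. In all, 57 sets of 4 values were examined in this way and 1 stood out, where chance alone marks about 1 in 20.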

How the results depend on the processing

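The number of detected members stayed between 26 and 34 of the measured ones under every detection rule tried. It was 34 when signal had only to be positive and significant, beside 55.4% of all genes. At 3 of 4 arrays it was 32 (beside 48.1%), and with every probe of a gene required 26 (beside 38.6%). With the low-signal patch left out on replicate 3 it was 29 of 36 (beside 44.5%). The same held with the patch left out on replicates 3 and 4, as chosen after seeing the data. Without single replicates the number was 29 to 32, beside 44.5% to 47.7% of all genes. The median SD of the detected members ranged from 0.20 to 0.35 without single replicates, beside 0.20 to 0.27 in all detected genes. Both were lowest without replicate 4. Under the other settings except spike-in scaling it ranged from 0.28 to 0.32, beside 0.23 to 0.26. With spike-in scaling it was 0.64, beside 0.59 in all detected genes. Spike-in scaling also moved the members' median deviations to 0.45, 0.52, -0.18 and -0.70 on replicates 1 to 4, but those of all detected genes went to 0.39, 0.51, -0.14 and -0.75. The values relative to them (0.05, 0.00, -0.04 and 0.05) cannot differ from those with the 75th percentile, because this scaling shifts all genes of an array alike. Under normexp the deviation on replicate 4 was -0.18, beside -0.13 in all detected genes. Members with an SD above 0.5 numbered 4, but 17 with spike-in scaling (61.3% of all detected genes), 1 with the percentile over detected probes (8.96%), 3 under normexp (7.01%), 3 under quantile normalization (9.06%), 5 with the mean over probes, 1 without replicate 4 and 5 or 6 without another replicate. Without single replicates the members' median deviations ranged from -0.07 to -0.02 on replicate 1, -0.07 to 0.04 on replicate 2, -0.09 to 0.06 on replicate 3 and 0.11 to 0.19 on replicate 4. Under normexp 21 of 29 detected members kept their side relative to the median gene on replicate 4. Under quantile normalization 27 did, and with the mean over probes 25. The same count was not made over all detected genes. Whether members kept their side more or less often than other genes is therefore not known, and the cause was not tested. No paired analysis was possible because there is 1 group. Rb1cc1, Atg5 and Atg4a were below background on replicate 4 only; Atg12 and Tbk1 were also below it on replicate 3.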
